A study of Homo sapiens with 12 samples.

Results

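The 8 genes described here encode transcription factors that take lymphoid progenitors into the T cell lineage: TCF7, LEF1, BCL11B, GATA3, RUNX1, TCF12, TCF3 and IKZF1. They were taken by gene symbol and all 8 were found among the 17589 genes of the gene table, together with 136 of the 90572 transcripts of the transcript table. RNA was sequenced from unstimulated YT cells, which the labels describe as a human NK-like lymphoid cell line, in 4 groups of 3 libraries. Every group carried a lentiviral vector driven by the hEF1A promoter and was sorted for eGFP and expanded. CTRL cells carried eGFP. hnCD16 cells carried a high-affinity, non-cleavable CD16a, the Fc receptor with which NK cells bind antibody-coated targets. FR1 cells carried the fusion receptor hnCD16-2B4-DAP10-CD3ζ and FR2 cells hnCD16-DAP10-CD3ζ, so that FR1 and FR2 differed by the 2B4 signalling domain. The labels give each group as 1 transduced population of YT cells. Nothing in the labels says that the 3 libraries of a group came from separate cultures, so the p-values measure the spread between these libraries, which may be technical. The libraries held 17714565 to 18729018 expected counts.

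TCF7 (TCF-1) and LEF1 are HMG-box factors that act with β-catenin and with Groucho/TLE corepressors, and TCF7 is induced by Notch signalling in early thymic progenitors. TCF7 and GATA3 then act upstream of BCL11B, the zinc-finger factor whose activation marks T lineage commitment and whose loss in mouse T cell precursors permits NK-like cells to emerge. RUNX1 binds DNA with CBFβ, TCF3 (E2A) and TCF12 (HEB) are E proteins that ID proteins hold off DNA, and IKZF1 (Ikaros) is a zinc-finger factor of all lymphoid lineages. Innate lymphoid and NK cells use a partly different set, in which ID2, TBX21, RUNX3 and NFIL3 take part.

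The libraries were checked against their labels before any comparison. FCGR3A, which encodes CD16a, had 0 counts in the 3 CTRL libraries, 480, 453 and 462 counts in hnCD16, 567, 560 and 559 in FR1, and 1110, 1132 and 1012 in FR2. CD16a reads were thus present where the labels place the transgene, although reads of a transgene and of the cell's own gene cannot be told apart in these counts. The cell type label was not matched by the markers in every group. The summed level of 13 NK cell markers was 53.6 to 57.0 TPM in CTRL and 50.9 to 55.0 in hnCD16 (TPM is transcript abundance scaled by length and depth), against 7985 to 8400 in FR1 and 7695 to 7779 in FR2. GZMB, the cytotoxic protease granzyme B, had 10 to 17 counts in the 6 libraries of CTRL and hnCD16 against 44542 to 49153 in the 6 FR libraries, and NCR1 (NKp46) had 0 to 5 and 436 to 535. NCAM1 (CD56), the classical NK marker, was near 0 in CTRL and hnCD16 (0 to 4 counts) and stayed low in FR1 (29 to 42) and FR2 (21 to 27), where limma with a pseudocount of 1 did not call it. A gene was called here as the study's own thresholds define a differentially expressed gene (DEG): an absolute log2 fold change of 1 or more with an adjusted p of at most 0.05, from edgeR's quasi-likelihood test. Of 11 NK markers tested, 8 rose in both FR groups against hnCD16, where 18.7% of all 13657 genes tested rose in FR1 and 19.6% in FR2. Not all went the same way. NCR3 (NKp30), another natural cytotoxicity receptor, fell from 101 to 105 counts in hnCD16 to 12 to 17 in FR1 and 0 to 5 in FR2, and FCER1G, a signalling adaptor, was called lower in FR2 (-1.07, adjusted p = 0.0253) but not by DESeq2 or limma with a pseudocount of 1, nor without hnCD16 replicate 1 or FR2 replicate 1 or 2 (-0.843 to -0.779). The reverse held for 8 T cell markers, which summed to 1538 to 1762 TPM in CTRL and 1696 to 1758 in hnCD16 but to 45.5 to 48.8 in FR1 and 51.2 to 54.6 in FR2, where CD3D, CD4, CD8A, CD8B and CD6 each had at most 3 counts in every library, and 8 of 8 fell in FR1 against hnCD16 (19.6% of all genes did). The list held 11 T cell markers, but the T cell receptor constant genes TRAC, TRBC1 and TRBC2 were not among the quantified genes and could not be checked. Summed B cell, myeloid and erythroid markers stayed under 28.4 TPM in every library. Within the B cell list PAX5 rose by 8.99 in FR1 and by 9.20 in FR2 against hnCD16 on the log2 scale, while CD79A, CD79B and CR2 fell. The 10 HLA class II genes went from 11.2 to 13.4 TPM in CTRL and hnCD16 to 2440 to 3783 in the FR libraries. The 12 libraries therefore fell into CTRL with hnCD16 and FR1 with FR2, and whether the pairs came from the same line of cells was not tested. In every comparison between the pairs, an effect of the fusion receptors, a different cell line under the same label and whatever else set the pairs apart cannot be told apart. In RNA from whole populations, fewer cells of a type and less RNA per cell cannot be told apart either.

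The 250 bases before a RefSeq transcription start were read for the 8 genes (GRCh38.p14), 20 windows in all. Both strands were searched for 5 motifs. The TCF/LEF motif was CTTTGA, which reads TCAAAG on the other strand. The RUNX motif was TGTGGT, with ACCACA opposite, and the GATA motif was AGATAA, with TTATCT opposite. The Ikaros motif was TGGGAA, with TTCCCA opposite, and the E box, which E proteins bind, was CANNTG on either strand. Of all 35116 windows of this length in the RefSeq table, 11.2%, 11%, 9.2%, 20.8% and 61.8% held the TCF/LEF, RUNX, GATA, Ikaros and E box letters, and of the 20 windows of the 8 genes 1, 3, 1, 4 and 9 did. 3 windows are printed, because the genes they belong to had the lowest levels in the FR libraries or, for RUNX1, because one of its promoters can be told from the other by transcript. They are the windows of BCL11B (chr14:99272198-99272447, minus strand), of one TCF7 start (chr5:134123368-134123617, plus strand) and of the proximal RUNX1 promoter (chr21:34888700-34888949, minus strand). No exon that GENCODE annotates for the same gene lies in them, and exons of other genes were not checked. Capitals mark a match to any of the 5 motifs.
BCL11B: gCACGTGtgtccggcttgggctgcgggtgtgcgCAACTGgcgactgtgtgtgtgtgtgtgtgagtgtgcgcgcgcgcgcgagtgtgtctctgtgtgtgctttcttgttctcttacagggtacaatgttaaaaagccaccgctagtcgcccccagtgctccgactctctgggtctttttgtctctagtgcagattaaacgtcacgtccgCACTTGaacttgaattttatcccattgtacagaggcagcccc
TCF7: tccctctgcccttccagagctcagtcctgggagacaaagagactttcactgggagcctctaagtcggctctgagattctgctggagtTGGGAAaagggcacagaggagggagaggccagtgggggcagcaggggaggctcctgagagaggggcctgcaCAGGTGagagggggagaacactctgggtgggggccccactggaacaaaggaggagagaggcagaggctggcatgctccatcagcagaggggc
RUNX1: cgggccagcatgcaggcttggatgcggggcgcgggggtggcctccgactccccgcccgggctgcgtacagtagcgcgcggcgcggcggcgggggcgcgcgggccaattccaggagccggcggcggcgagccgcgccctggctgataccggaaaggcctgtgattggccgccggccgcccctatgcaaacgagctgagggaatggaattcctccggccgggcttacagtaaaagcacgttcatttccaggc
The BCL11B window held 3 E boxes and no other match. The TCF7 window held an Ikaros match 163 bases and an E box 92 bases before the start, and the RUNX1 window held none of the 5 motifs. The LEF1 window, which lies in an annotated exon and is not printed, held a RUNX match 57 bases and an Ikaros match 197 bases before the start, the latter overlapping an E box. The only TCF/LEF match was in a GATA3 window, 161 bases before its start. These matches describe the letters of the windows and not binding.

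TCF7 had the largest fold change of the 8 genes in each comparison of an FR group with hnCD16 or CTRL. It lies at chr5:134114681-134151865 on the plus strand. Its level was 215, 228 and 229 TPM in the CTRL libraries and 140 TPM in each hnCD16 library (139.65 to 140.15), against 1.27, 0.84 and 0.71 in FR1 and 0.94, 0.82 and 0.68 in FR2. The FR libraries held 31 to 49 counts of TCF7 each and the others 5166 to 8046, so that neither FR group overlapped CTRL or hnCD16. TCF7 fell by 7.01 on the log2 scale in FR1 against hnCD16 (SE 0.089, adjusted p = 2.57e-20) and by 7.13 in FR2 against hnCD16 (SE 0.0898, adjusted p = 2.08e-20). Against CTRL it fell by 7.52 in FR1 (SE 0.0887, adjusted p = 1.33e-20) and by 7.64 in FR2 (SE 0.0895, adjusted p = 9.78e-21). In counts scaled to library size (CPM), this was 129-fold and 141-fold below hnCD16 and 184-fold and 199.6-fold below CTRL.

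LEF1 (chr4:108047545-108168956, minus strand) followed the same order. It stood at 210, 218 and 204 TPM in CTRL and 161, 162 and 161 in hnCD16, but at 3.96, 4.0 and 4.62 in FR1 and 4.06, 3.62 and 4.13 in FR2. The FR libraries did not overlap the others, and FR1 and FR2 overlapped each other. It fell by 5.34 in FR1 (SE 0.0754, adjusted p = 8.24e-20) and by 5.42 in FR2 (SE 0.0758, adjusted p = 7.3e-20) against hnCD16 on the log2 scale, which is 40.5-fold and 42.9-fold, and 50.4-fold and 53.4-fold against CTRL. TCF7 and LEF1 together summed to 434 ± 10.5 TPM in CTRL and 301 ± 0.513 in hnCD16 and to 5.13 ± 0.259 in FR1 and 4.75 ± 0.285 in FR2 (SD, n = 3). Their paralogs were low in every group: TCF7L1 and TCF7L2 summed to 6.32 TPM in CTRL and 4.66 in hnCD16 and to 0.24 in FR1 and 0.42 in FR2.

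BCL11B (chr14:99169287-99272197, minus strand) stood at 21.6, 22.0 and 23.5 TPM in CTRL, 15.8, 15.8 and 15.7 in hnCD16, 1.09, 1.64 and 1.49 in FR1 and 1.62, 1.36 and 1.54 in FR2. The FR libraries still held 94 to 140 counts each, so BCL11B was low there but above the limit that a count of 0 allows, which is 3 counts per library. It fell by 3.42 in FR1 (SE 0.0891, adjusted p = 2.41e-16) and by 3.33 in FR2 (SE 0.0879, adjusted p = 2.81e-16) against hnCD16 on the log2 scale. These are 10.7-fold and 10.1-fold, and the falls against CTRL were 13.8-fold and 12.9-fold. Its close relative BCL11A, a factor of B cell and erythroid development, had 472 to 657 counts across CTRL and hnCD16 but 0 to 2 across FR1 and FR2, at least 158-fold lower in FR1 than in hnCD16.

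GATA3 (chr10:8045378-8075198, plus strand), which also serves type 2 innate lymphoid cells, kept more of its level. It was at 38.9, 40.7 and 37.1 TPM in CTRL, 27.7, 28.2 and 27.5 in hnCD16, 8.95, 7.66 and 10 in FR1 and 12.3, 12.7 and 13.2 in FR2. All 4 groups were separate, with FR1 lowest. GATA3 fell by 1.54 in FR1 (SE 0.0789, adjusted p = 4.14e-12) and by 1.04 in FR2 (SE 0.0752, adjusted p = 5.31e-10) against hnCD16 on the log2 scale, or 2.91-fold and 2.05-fold. The FR2 value lay close to the fold threshold: in a fit of these 2 groups alone it was -0.993, and without FR2 replicate 1 it was -0.961, so that the call was lost. Against CTRL the falls were 1.89 in FR1 (SE 0.0775, adjusted p = 1.69e-13) and 1.39 in FR2 (SE 0.0738, adjusted p = 6.92e-12). GATA2, a factor of stem and mast cells, had 48 to 71 counts in CTRL and hnCD16 and 0 or 1 in the FR libraries.

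RUNX1 (chr21:34787801-36004667, minus strand) was at 63.4, 62.7 and 69.8 TPM in CTRL, 49.3, 47.5 and 49.2 in hnCD16, 9.85, 9.95 and 9.46 in FR1 and 13.8, 11.8 and 13.01 in FR2. Here too all 4 groups were separate. It fell by 2.15 in FR1 (SE 0.0527, adjusted p = 1.06e-16) and by 1.79 in FR2 (SE 0.0515, adjusted p = 9.64e-16) against hnCD16 on the log2 scale, or 4.43-fold and 3.46-fold, and 5.40-fold and 4.22-fold against CTRL. Its 2 paralogs went the other way. RUNX3, which cytotoxic T cells and NK cells use, was at 20.5 TPM in CTRL and 14.4 in hnCD16 and at 44.3 in FR1 and 49.0 in FR2, and rose by 1.70 in FR1 (SE 0.0585, adjusted p = 1.34e-14) and by 1.83 in FR2 (SE 0.0584, adjusted p = 4.35e-15) against hnCD16. RUNX2, best known from bone, went from 39 to 58 counts per library to 585 to 630, a rise of 3.62 in FR1 (SE 0.0864, adjusted p = 6.87e-17). The 3 genes summed to 86.6 ± 3.94 TPM in CTRL, 64.0 ± 0.968 in hnCD16, 64.7 ± 3.24 for FR1 and 72.4 ± 1.07 for FR2 (SD, n = 3), within which the share of RUNX1 was 75.3% in CTRL and 76.1% in hnCD16 but 15.1% in FR1 and 17.8% in FR2. CBFB, which encodes the shared partner, was at 97.3 and 96.9 TPM in CTRL and hnCD16 and at 143 and 128 in FR1 and FR2, short of the fold threshold in each comparison.

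Of the E proteins, TCF12 (chr15:56918623-57299281, plus strand) was lower in the FR libraries. It was at 47.2, 51.3 and 55.6 TPM in CTRL, 43.5, 49.7 and 51.8 in hnCD16, 22.7, 23.5 and 22.6 in FR1 and 20.1, 18.9 and 20.8 in FR2. CTRL and hnCD16 overlapped, while both FR groups lay apart from them and from each other. In FR2 it fell by 1.22 against hnCD16 (SE 0.0549, adjusted p = 6.18e-13) and by 1.12 against CTRL (SE 0.0548, adjusted p = 2.2e-12) on the log2 scale. FR1 sat at the threshold: the log2 fold change was -1.004 against hnCD16 (SE 0.0544, adjusted p = 9.34e-12), called, and -0.90 against CTRL (SE 0.0544, adjusted p = 4.23e-11), not called. The first call was lost with a minimum of 10 counts in every library (-0.998), in a fit of the 2 groups alone (-0.994) and without hnCD16 replicate 2 or 3 or FR1 replicate 1 or 3 (-0.989 to -0.978), and the second was gained when counts were scaled by library size alone (-1.10) and by limma (-1.13 and -1.16 with pseudocounts of 1 and 0.1).

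TCF3 (chr19:1609291-1652615, minus strand) was not a DEG in any comparison. It was at 89.4, 91.4 and 88.5 TPM in CTRL, 65.3, 62.2 and 63.7 in hnCD16, 67.2, 55.6 and 63.8 in FR1 and 71.3, 69.6 and 69.6 in FR2. CTRL was above all other libraries, and FR1 overlapped hnCD16. The log2 fold change in FR1 against hnCD16 was 0.00 (SE 0.0607, adjusted p = 1), with a sign that changed between settings. The log2 fold changes were 0.18 in FR2 against hnCD16 and -0.35 in FR1, -0.17 in FR2 and -0.35 in hnCD16 against CTRL.

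The level of the E proteins as a set differed less than that of the ID proteins, which dimerise with them and keep them from DNA. TCF3, TCF4 and TCF12 summed to 145 ± 4.396 TPM in CTRL, 116 ± 3.97 in hnCD16, 91.5 ± 5.42 for FR1 and 95.5 ± 1.60 for FR2 (SD, n = 3). The 4 ID genes summed to 48.6 ± 4.06 and 27.6 ± 1.38 TPM in CTRL and hnCD16 and to 330.2 ± 8.76 and 359.7 ± 10.1 in FR1 and FR2. The ratio of the first sum to the second was 3.005 ± 0.329 in CTRL and 4.19 ± 0.235 in hnCD16 against 0.277 ± 0.0232 in FR1 and 0.266 ± 0.00372 in FR2. ID2, which NK cells and other innate lymphoid cells need, made up most of the sum in the FR libraries. Its counts were 17 to 34 in CTRL and 11 to 22 in hnCD16 but 4085 to 4320 in FR1 and 4492 to 4704 in FR2, a rise of 7.94 in FR1 (SE 0.124, adjusted p = 2.51e-19) and 8.05 in FR2 (SE 0.123, adjusted p = 1.99e-19) against hnCD16 on the log2 scale. ID3, which early T cells express, fell by 1.56 (SE 0.156, adjusted p = 4.79e-08) and 1.22 (SE 0.148, adjusted p = 6.1e-07) in the same comparisons, and ID1 fell to between 0 and 4 counts in the FR libraries from 52 to 119.

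IKZF1 (chr7:50304068-50405101, plus strand) was at 65.6, 68.2 and 67.9 TPM in CTRL, 51.3, 48.8 and 48.2 in hnCD16, 40.1, 42.6 and 42.9 in FR1 and 44.5, 45.6 and 44.03 in FR2. The 4 groups were separate, but no comparison reached the fold threshold. The log2 fold changes were -0.30 (SE 0.0508, adjusted p = 2.97e-05) in FR1 and -0.15 (SE 0.0506, adjusted p = 0.00975) in FR2 against hnCD16, and -0.62 (SE 0.0506, adjusted p = 2.89e-09) and -0.47 (SE 0.0504, adjusted p = 1.1e-07) against CTRL. Its relatives differed far more. IKZF3 (Aiolos) rose by 5.18 (SE 0.0723, adjusted p = 7.79e-20) in FR1 and by 5.25 (SE 0.0724, adjusted p = 6.25e-20) in FR2 against hnCD16, from 2.29 TPM to 80.5 and 85.4. IKZF2 (Helios) fell by 6.32 (SE 0.177, adjusted p = 6.94e-16) and 5.93 (SE 0.169, adjusted p = 8.66e-16), from 31.2 TPM to 0.29 and 0.39. The 5 IKZF genes summed to 124 ± 10.6, 104 ± 5.80, 135 ± 4.29 and 143 ± 1.94 TPM in CTRL, hnCD16, FR1 and FR2 (SD, n = 3), and IKZF1 made up 54.2%, 47.7%, 31.1% and 31.4% of these sums.

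**Figure D1:**
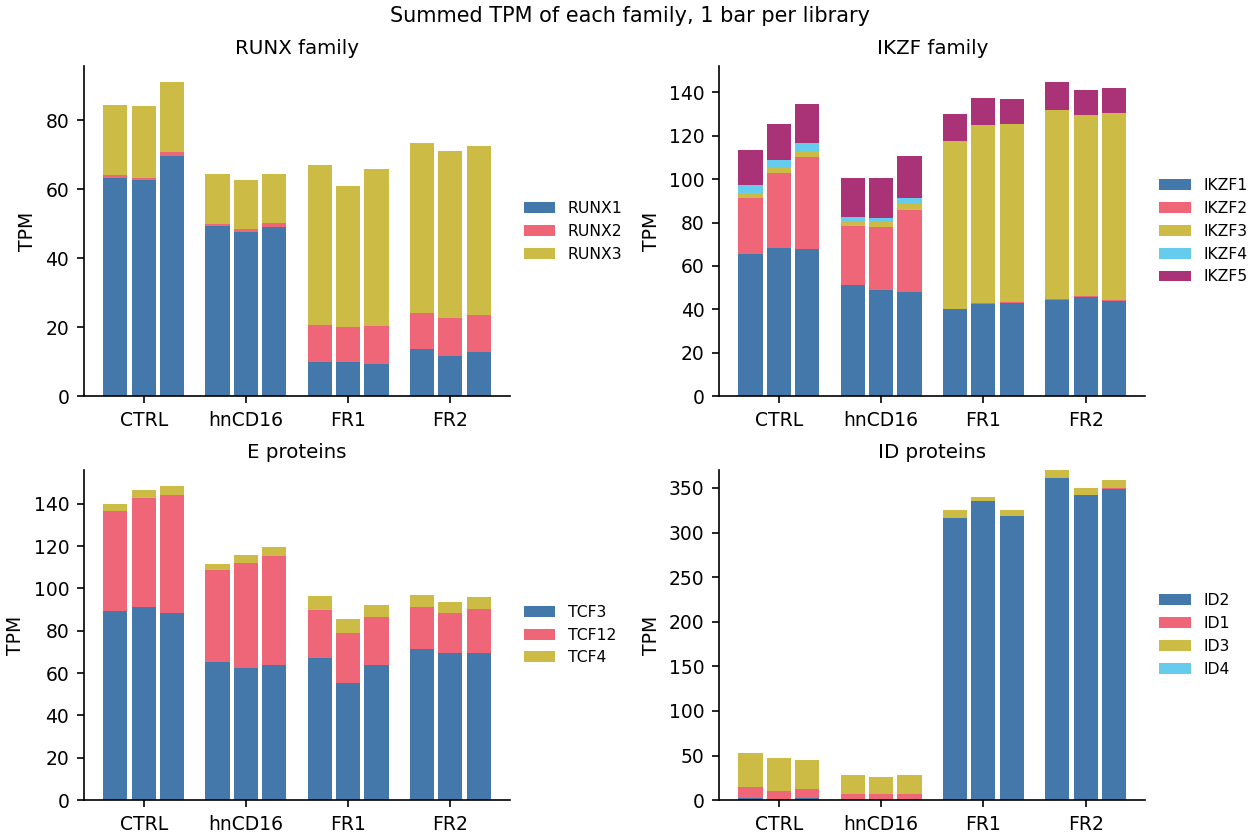
Summed TPM of the RUNX, IKZF, E protein and ID families, with 1 stacked bar for each of the 12 libraries and 1 colour for each gene. The RUNX sum was 64.0 TPM in hnCD16 and 64.7 in FR1 while the RUNX1 part went from 76.1% to 15.1%, and the ID sum was 27.6 TPM in hnCD16 and 330.2 in FR1, where nearly all of the bar is ID2.

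Over the 8 genes, 6 fell in FR1 against hnCD16, where 38.3% of all 13657 genes tested were DEGs and 19.6% were lower in FR1. In FR2 against hnCD16 the same 6 genes fell (39.5% of all genes called, 19.8% lower), in FR1 against CTRL 5 fell, all of them but TCF12 (38% called, 19.8% lower), and in FR2 against CTRL 6 fell (38.2% called, 19.6% lower). No member rose in these 4 comparisons, in which 18.7%, 19.6%, 18.3% and 18.7% of all genes were higher in the FR group. By the adjusted p alone 7, 7, 8 and 8 of the 8 were lower (40%, 41.4%, 40.8% and 41.7% of all genes), and TCF3 was higher in FR2 than in hnCD16 (38.7%). Either way, 79.1%, 80.1%, 79.9% and 80.2% of all genes passed this looser rule. The groups did not overlap in CPM for 7, 8, 8 and 8 of the 8 genes, against 80.8%, 81.7%, 80.5% and 81.2% of all genes, so separation of the groups alone is near the background. The median log2 fold change of the 8 genes was -1.84, -1.504, -2.16 and -1.73, beside -0.01, -0.03, -0.03 and -0.04 over all genes. The 4 comparisons share their groups and are not separate evidence. The 8 genes were also chosen with earlier results of these data known, so an excess over all genes may reflect that choice.

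**Figure D2:**
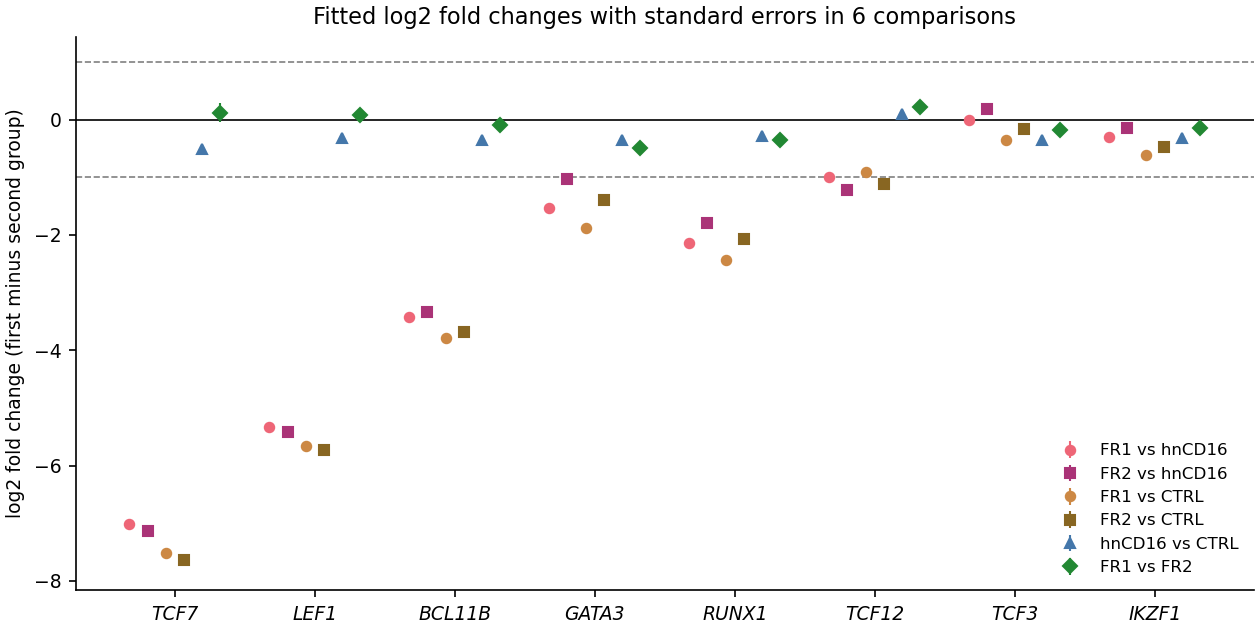
Log2 fold change of the 8 genes in the 6 comparisons from edgeR (points; bars of 1 SE, mostly hidden by the symbols), with dashed lines at the fold threshold of 1. TCF7 lies between -7.64 and -7.01 in the 4 comparisons of an FR group with CTRL or hnCD16, and all points of hnCD16 against CTRL and of FR1 against FR2 lie inside the lines.

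The comparison of hnCD16 with CTRL sets the receptor without a fused signalling domain beside the eGFP control. Each group was its own transduced, sorted and expanded population. An effect of the receptor and of any other difference between the populations cannot be told apart. None of the 8 genes was a DEG by edgeR, DESeq2 or limma, beside 0.527% of all genes by edgeR. By the adjusted p alone, as by an unadjusted p under 0.05, 7 of the 8 were lower in hnCD16, beside 21.4% of all genes lower and 43% differing either way. The sizes lay in a narrow range, from -0.51 for TCF7 (SE 0.0541, adjusted p = 1.4e-05) to -0.28 for RUNX1 (SE 0.0479, adjusted p = 0.000223). LEF1 (-0.32), BCL11B (-0.36), GATA3 (-0.35), TCF3 (-0.35) and IKZF1 (-0.32) lay between. TCF12 was the exception, at 0.10 (SE 0.0527, adjusted p = 0.136), and its sign changed when counts were scaled by library size alone. The groups did not overlap for 7 of the 8 genes, against 47.7% of all genes. The median was -0.33 for the 8 genes and -0.01 for all genes.

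The groups with the 2 fusion receptors were compared with each other. The receptors differ by the 2B4 domain, but each was carried by 1 transduced population. FCGR3A was also at 31.9 to 32.8 CPM in FR1 and 57.9 to 64.0 in FR2. An effect of the 2B4 domain, of the receptor level and of any other difference between the populations cannot be told apart. No member was a DEG in FR1 against FR2 by edgeR, DESeq2 or limma (1.93% of all genes were by edgeR). By the adjusted p alone, as by an unadjusted p under 0.05, 5 of the 8 differed, beside 36.2% of all genes, and the same number of genes had groups that did not overlap, beside 50.1%. GATA3 was lower in FR1 by a log2 fold change of -0.50 (SE 0.0848, adjusted p = 0.000207), RUNX1 by -0.36 (SE 0.0544, adjusted p = 8.46e-05), TCF3 by -0.18 (SE 0.0606, adjusted p = 0.0301) and IKZF1 by -0.15 (SE 0.051, adjusted p = 0.0305), while TCF12 was higher by 0.21 (SE 0.0559, adjusted p = 0.00625). The GATA3 and RUNX1 libraries of FR1 all lay below those of FR2. For the 3 genes that had fallen furthest the values were 0.12 (SE 0.164, adjusted p = 0.686) for TCF7, 0.08 (SE 0.105, adjusted p = 0.629) for LEF1 and -0.09 (SE 0.117, adjusted p = 0.59) for BCL11B. Their standard errors were larger than those of the other 5 genes.

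The order of the 8 genes by TPM, which is per transcript length, differed between the pairs of groups. In CTRL it ran from TCF7 (224) and LEF1 (210.4), which overlapped, over TCF3 (89.8), IKZF1 (67.2) and RUNX1 (65.3), the last 2 overlapping, to TCF12 (51.4), GATA3 (38.9) and BCL11B (22.4). In hnCD16 LEF1 (161) was above TCF7 (140) without overlap, and IKZF1 (49.4), RUNX1 (48.7) and TCF12 (48.3) overlapped. In FR1 TCF3 (62.2) and IKZF1 (41.9) came first, then TCF12 (22.9), RUNX1 (9.75) and GATA3 (8.87), the last 2 overlapping, LEF1 (4.19), and BCL11B (1.41) and TCF7 (0.94), which overlapped. FR2 had the same order, and there BCL11B (1.51) and TCF7 (0.813) were separate. TCF7 thus went from the first place in CTRL to the last in both FR groups.

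Reads were also assigned to single transcripts, a division that was much less even between replicates than the gene sums, and 119 of the 136 transcripts were tested. In FR1 against hnCD16, 22 transcripts fell and 1 rose, where 14.8% of all 56640 transcripts tested were DEGs and 7.26% were lower. The counts were 20 and 1 in FR2 against hnCD16 (15.3% called, 7.51% lower), 25 and 1 in FR1 against CTRL (14.7% and 7.36%) and 22 and 1 in FR2 against CTRL (14.8% and 7.31%). TCF7 gave 10 of its 12 transcripts in each of the 4 comparisons and LEF1 4 of its 7, while TCF12, with 22, gave 3. GATA3, with 4 tested transcripts, TCF3, with 20, and IKZF1, with 42, each had at most 1 lower transcript in any of these comparisons.

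For LEF1 the transcripts differed in how far they fell. The full-length transcript NM_016269 was at 62.9, 53.4 and 53.4 TPM in CTRL, 54.4, 48.1 and 47.2 in hnCD16, 0.42, 0.41 and 0.32 in FR1 and 0, 0.85 and 0.67 in FR2. NM_001130713 was at 36.5, 55.6 and 51.4 TPM in CTRL and 11.1, 14.1 and 15.7 in hnCD16, and had 0 counts in all 6 FR libraries. It was also the single transcript of the 8 genes called in hnCD16 against CTRL (log2 fold change -1.67, SE 0.187, adjusted p = 0.0209), where 0.162% of all transcripts were called and 0.0936% lower, a call lost without any one of the 6 libraries but CTRL replicate 1. XM_005263046 made up 7.09% of LEF1 TPM in CTRL and 3.07% in hnCD16 and 44.5% in FR1 and 40.2% in FR2. In the FR groups this rests on 0 to 74 counts a library, and single libraries ranged from 35% to 60.6% in FR1 and from 0% to 70.0% in FR2.

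RUNX1 is transcribed from a distal promoter, which gives RUNX1c (NM_001754), and from the proximal promoter printed above, which gives RUNX1b (NM_001001890). RUNX1b was at 38.3, 37.6 and 41.1 TPM in CTRL, 27.8, 26.4 and 29.9 in hnCD16, 8.35, 6.52 and 7.63 in FR1 and 9.64, 9.48 and 9.64 in FR2. RUNX1c was at 14.5, 11.6 and 13.4 TPM in CTRL and 10.8, 9.68 and 7.65 in hnCD16, and at 0.62, 0 and 0 in FR1 and 0.05, 0.14 and 1.03 in FR2. The mean share of RUNX1c in the gene's TPM was 20.2% and 19.3% in CTRL and hnCD16 and 2.1% and 3.15% in FR1 and FR2. That of RUNX1b was 59.8% and 57.6% against 77.0% and 74.7%. Single libraries ranged from 15.5% to 22.9% in CTRL and hnCD16 and from 0% to 7.92% in the FR groups for RUNX1c. For RUNX1b they ranged from 55.6% to 60.7% and from 65.7% to 84.9%. RUNX1c fell in FR1 against hnCD16 (log2 fold change -5.43, adjusted p = 0.0336) and against CTRL (-5.78, adjusted p = 0.0266) and in FR2 against CTRL (-4.80, adjusted p = 0.0485), and was not called in FR2 against hnCD16.

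The division of a gene's reads among its transcripts was tested in its own right with diffSpliceDGE. By its F test 3 members were called in FR1 against hnCD16 (LEF1, TCF7 and RUNX1; 15.4% of the 9606 genes tested), LEF1 and TCF7 in FR2 against hnCD16 (16.5%), and all 3 again in FR1 (15.5%) and FR2 (16%) against CTRL. In simulated data the F test called more unchanged genes than its adjusted p allows, and the stricter Simes p was added. The simulated transcripts varied less between replicates than the real ones (dispersion 0.1 against 1.26). How often either p errs at the spread of these data was therefore not tested. By the Simes p LEF1 was called in all 4 comparisons (adjusted p = 0.0101, 0.0111, 0.000245 and 3e-04), TCF7 in FR2 against hnCD16 (0.019) and against CTRL (0.00803), and RUNX1 in none (0.0808 to 0.204), while 3.94%, 4.43%, 4.14% and 4.43% of all genes were called. The TCF7 calls rest on 31 to 49 counts of the gene in each FR library, divided among 12 tested transcripts. The LEF1 calls rest on 93 to 112 counts, divided among 7. None of the 8 genes was called in hnCD16 against CTRL by either p (0.656% of genes were by the F test), and none had an unadjusted F test p under 0.05. TCF7 was also called in FR1 against FR2 by the F test (adjusted p = 0.0328; 1.31% of genes) but not by the Simes p (0.156), and the call was lost without FR1 replicate 2 or FR2 replicate 1. That call came with NM_001366502, the 1 transcript called between the FR groups (0.254% of all), which had 0 counts in FR1 and 7 to 20 in FR2.

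IKZF1 had the 1 transcript that rose. NM_001291847 had 0 counts in all libraries of CTRL and hnCD16, but 17 to 22 for FR1 and 6 to 23 for FR2 (adjusted p from 0.00868 to 0.00955 in the 4 comparisons). It reached 2.80, 2.35 and 3.03 TPM in FR1 and 0.84, 2.91 and 3.19 in FR2. This was a mean of 6.52% and 5.17% of the gene's TPM, but 0.88% and 0.67% of its counts.

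The other genes of these pathways were taken from 6 lists, of which 95 genes that are not members were tested. The lists were chosen with earlier results of these data known, so an excess of calls over all genes may reflect that choice. Of these, 65, 70, 65 and 65 were DEGs in FR1 and FR2 against hnCD16 and in FR1 and FR2 against CTRL, beside 38.3%, 39.5%, 38% and 38.2% of all genes. Higher and lower genes were 25 and 40 in FR1 against hnCD16 (18.7% and 19.6% of all genes), with a median log2 fold change of -0.18 beside -0.01 over all genes. In hnCD16 against CTRL none was a DEG by edgeR, DESeq2 or limma, while 45 passed the adjusted p alone and 51 an unadjusted p under 0.05, counts near the background of 43% and 49.4% of all genes. In FR1 against FR2 9 were DEGs, 8 of them lower in FR1 (1.93% and 1.49% of all genes). In the lists that follow, the shares of all genes that rose and fell are 18.7% and 19.6% for FR1 against hnCD16 and 19.6% and 19.8% for FR2.

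Of the 9 tested genes on the list of E proteins and partners, 2 rose and 5 fell in FR1 against hnCD16 (median -1.56) and likewise in FR2 (median -1.22). The genes that rose in all 4 comparisons were ID2 and LMO4, an adaptor of LIM factors. The bHLH factors TAL1 and LYL1 and their adaptor LMO2, which form a stem cell and leukaemia complex with E proteins, fell to at most 1 count in any FR library. From 331 to 502, 499 to 624 and 167 to 222 counts in CTRL and hnCD16, they were at least 111-fold, 162-fold and 56.0-fold lower in FR1 or FR2 than in hnCD16 or CTRL, with 3 counts per library taken as the floor.

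Of 13 genes of the Wnt and β-catenin list 2 rose and 4 fell in FR1 against hnCD16 and 3 rose and 4 fell in FR2, with medians of 0.03 and 0.39. Of all genes, 38.3% and 39.5% were called either way. TCF7L2 and the corepressors TLE1 and TLE4, which bind TCF7 and LEF1, fell in all 4 comparisons. TLE1 was at 20.1 and 12.96 TPM in CTRL and hnCD16 and at 1.53 and 2.26 in FR1 and FR2, and TLE4 at 13.2 and 9.59 against 1.61 and 3.05. TLE2 rose, from 1 to 4 counts a library in CTRL and hnCD16 to 158 or more in each FR1 library and 341 or more in each FR2 library, and so did RNF43, a negative regulator of Wnt receptors, from 1.66 TPM in hnCD16 to 5.22 and 3.61, although its calls in FR2 were lost by limma with a pseudocount of 1 against hnCD16 (0.79), and against CTRL by limma (0.65 and 0.86 with pseudocounts of 1 and 0.1) and with library size alone (0.96). ZNRF3, the homologous regulator, went the other way: it fell in all 4 comparisons, from 89 to 116 counts in CTRL and hnCD16 to 19 to 30 in the FR libraries, calls that limma with a pseudocount of 1 did not make (-0.97 to -0.82).

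Of 20 paralogs and complex partners of the members, 6 rose and 5 fell in FR1 against hnCD16 and 6 and 6 in FR2 (medians 0.15 in both), beside 38.3% and 39.5% of all genes called either way. Besides IKZF3 and RUNX2, ZBTB7B (ThPOK), the factor of the CD4 lineage, was among the 3 that rose most, at 0.913 and 0.45 TPM in CTRL and hnCD16 and 22.4 and 29.3 in FR1 and FR2. IKZF2, GATA2 and BCL11A, described above, were the 3 that fell furthest.

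Notch signalling, which induces TCF7, was represented by 13 genes, of which 3 rose and 6 fell in FR1 against hnCD16 and 4 and 6 in FR2 (medians -0.69 and -0.32). HES1, the canonical Notch target, went from 1251 to 1560 counts in CTRL and hnCD16 to 1 to 3 counts for FR1 and 5 to 9 for FR2, which in FR1 is at least 414-fold below hnCD16. HES4 had 32 to 46 counts in CTRL and hnCD16 and 0 in the FR libraries, and DTX1 54 to 91 against 0 to 7. HEY1, another target, rose in all 4 comparisons, from 0 or 1 count in CTRL and hnCD16 to 8 to 10 in FR1 and 26 to 33 in FR2, although limma with a pseudocount of 1 did not call it in FR1 (0.50). The 4 receptors did not move together. NOTCH1 fell by 1.84 (SE 0.0661, adjusted p = 2.37e-14) in FR1 and 1.82 (SE 0.0659, adjusted p = 2.6e-14) in FR2 against hnCD16, while NOTCH2 rose by 2.78 (SE 0.0543, adjusted p = 4.52e-18) and 2.84 (SE 0.0543, adjusted p = 3.12e-18). NOTCH4 fell from 49 to 77 counts in CTRL and hnCD16 to 0 to 7 in the FR libraries, and NOTCH3, with 6 to 23 counts in any library, was not called (0.10 in FR1 and -0.31 in FR2 against hnCD16). The coactivator MAML2 rose from 1 to 4 counts a library to 440 to 488. HES1 was also among the 3 genes of this list that were lower in FR1 than in FR2, on fewer than 10 counts in each library.

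Of the 29 tested T lineage identity genes, 18 fell and 3 rose in FR1 against hnCD16 and 18 and 5 in FR2, with medians of -2.63 and -3.07. CD3D, a subunit of the T cell receptor complex, had 7757 to 9903 counts in CTRL and hnCD16 and 0 to 3 in the FR libraries. CD1E and RAG2, which cortical thymocytes express, had 555 to 709 and 162 to 212 counts in CTRL and hnCD16 and 0 in each FR library. Not all genes of the list fell. CD28, a costimulatory receptor, rose by 4.90 (SE 0.0875, adjusted p = 1.34e-18) in FR1 and by 5.27 (SE 0.0864, adjusted p = 4.5e-19) in FR2 against hnCD16, and BCL6, a repressor of follicular helper T and germinal centre B cells, went from 0 to 4 counts a library to 732 to 838 in FR1 and 1513 to 1591 in FR2.

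Of 14 NK and innate lymphoid lineage factors 10 rose and 2 fell in FR1 against hnCD16 and 11 and 2 in FR2, with medians of 2.44 and 2.62. TBX21 (T-bet) had 0 to 4 counts a library in CTRL and hnCD16 and 1360 to 1439 in FR1 and 1224 to 1306 in FR2. ZEB2 and PRDM1 (Blimp-1), which act in effector differentiation, had at most 2 counts in CTRL and hnCD16 and 1613 to 2040 and 1152 to 1320 in the FR libraries. NFIL3 rose by 3.02 (SE 0.0907, adjusted p = 1.92e-15) in FR1 and by 3.004 (SE 0.0907, adjusted p = 1.91e-15) in FR2 against hnCD16. The 2 genes of the list that fell were ZBTB16 (PLZF), from 33 to 60 counts to 1 to 6, and BACH2, from 150 to 256 counts to 2 to 5. The ZBTB16 calls were lost by limma with a pseudocount of 1, the values then being -0.56 in FR1 and -0.49 in FR2 against hnCD16.

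Genes whose pattern over the 12 libraries was most like that of a member were found by Pearson's r of log2(CPM + 1) among 9077 genes. Since the libraries fall into 2 sets of 6, any gene that separates them cleanly has a high r, and 556 genes reached 0.99 with TCF7, 579 with LEF1, 455 with BCL11B and 230 with RUNX1. The nearest to LEF1 was LCK, the kinase that starts T cell receptor signalling (r = 0.9997), followed by TNFAIP2 and PHC1. The nearest to TCF7 were ZNF512B, HIP1R and MFHAS1, to BCL11B PLCXD1, TANC2 and PPM1E, and to RUNX1 RGS19, FGFR1 and ABI2. Members with a more graded pattern had fewer neighbours. GATA3 had 21 genes at 0.99 or above, led by CD81 (r = 0.997), STARD3 and ZNF8, and TCF12 had 83, led by DDX3X, PAN3 and KPNA3. IKZF1 had 1, CDK2 (r = 0.991), before CNPPD1 and ZBED1, and TCF3 had none, with TTLL12 nearest (r = 0.985) before MOB3A and MKNK2.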

How the data were processed

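RNA from 12 libraries of YT cells was sequenced after ribosomal RNA depletion (the labels also name oligo(dT) beads). Per the study's methods and the labels, reads were aligned to GRCh38.p13 and genes and transcripts were quantified by the authors, with HISAT2 2.1.0, Bowtie2 2.3.4.3, RSEM 1.3.1 and DESeq2 1.4.5 among the submitters' processing tools. The deposited tables hold the authors' expected counts and TPM (scaled by length and depth) for 17589 genes and 90572 transcripts. They also hold FPKM, normalized counts, group averages and the authors' fold changes and p-values, which were not used (24 per-sample columns in each table). Whether counting used the strand is not given in the sources used here, so antisense reads may be included.

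Expected counts were rounded and tested with edgeR 4.0.16 (R 4.3.3): TMM scaling, filterByExpr (13657 genes and 56640 transcripts kept), 1 quasi-likelihood fit of the 4 groups and Benjamini-Hochberg adjustment over all features of a comparison. CPM are counts scaled by TMM library size. Levels between genes were compared in TPM. Transcript usage was tested with diffSpliceDGE on the 9606 genes with 2 or more tested transcripts. DESeq2 1.42.0 and limma 3.58.1 on log2(TPM + 1) or log2(TPM + 0.1) were alternatives, beside other scalings and filters and leaving out each library. The scripts were checked on simulated counts, with a dispersion of 0.003 for genes (0.00312 in the data) and of 0.1 for transcripts (1.26 in the data). The check of the transcript tests therefore does not cover the spread of the real transcripts. Gene coordinates are from GENCODE 44 (GRCh38), and tables and figures were made in Python 3.11.15 with pandas 2.3.3 and matplotlib 3.10.9.

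The members and gene lists were chosen with earlier results of these data known. Named were the members and the 3 genes nearest each member among those with a mean of 10 CPM or more. Up to 3 genes at each end of a list by mean log2 fold change were also named. These had a mean of 1 CPM or more and were DEGs in all 4 comparisons of an FR group with CTRL or hnCD16. Of the member transcripts with a mean of 1 TPM or more only some were named, picked after their values had been seen. RUNX3, CBFB, ID1, ID3, TCF4, TCF7L1, ZNRF3, NOTCH1, NOTCH3, NOTCH4, HEY1, NFIL3, GZMB, NCR1, NCR3, NCAM1, FCER1G, CD3E, CD4, CD6, CD8A, CD8B, PAX5, CD79A, CD79B and CR2 were named in addition, after their values had been seen. Total counts per library differed by little. Shares are means of 3 libraries, and no interval was computed for them.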

Additional observations from a re-analysis of the deposited data

How the results depend on the processing

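The 8 genes were refitted under every alternative, and 693 of 720 log2 fold changes kept their direction and their side of both thresholds. 8 lost and 3 gained a call, all of TCF12 or GATA3 with values given beside those genes, and 16 changed sign. TCF3 in FR1 against hnCD16 was below 0 with RLE scaling (-0.0108), library size alone (-0.0797), no low-count filter (-0.0094), DESeq2 (-0.0092) and limma with a pseudocount of 1 (-0.0390) or 0.1 (-0.0396), and ranged from -0.0355 to 0.0617 when single libraries were left out. TCF12 in hnCD16 against CTRL was -0.0121 with library size alone and -0.0868 and -0.0883 with limma. FR1 against FR2 ranged over left-out libraries from -0.221 to 0.0249 for BCL11B and from -0.147 to 0.247 for TCF7, in both cases with the sign changed without FR1 replicate 1. Of other genes on few counts, FCER1G in FR2 against CTRL ranged from -0.8205 to 0.2464 (above 0 without CTRL replicate 3 or FR2 replicate 1 or 2) and NOTCH3 in FR1 against hnCD16 from -0.034 to 0.2464 (below 0 without FR1 replicate 3). NOTCH3 in FR2 against CTRL passed the fold threshold with library size alone (-1.07) and without CTRL replicate 2 (-1.07) or FR2 replicate 2 (-1.21). Library size alone moved the median of all genes to -0.22 in FR1, -0.17 in FR2 and -0.12 in hnCD16 against CTRL. The cause of these shifts was not tested.

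Counts moved mainly with the filter and the fold threshold. Other pathway genes called were 30 (FR1 against hnCD16), 35 (FR2 against hnCD16), 30 and 30 (against CTRL) and 1 (FR1 against FR2) with at least 10 counts in every library, since genes near 0 in one group were then not tested. In FR1 against FR2 they were 5 in a fit of the 2 groups alone and 3 by limma with a pseudocount of 1, and in hnCD16 against CTRL 1 with library size alone. With no fold threshold 8 members were called in FR1 against CTRL, 7 in hnCD16 against CTRL and 5 in FR1 against FR2, and 45 and 38 other pathway genes in the last 2. Transcript usage calls in FR1 against FR2 were 0 with no filter and by the Simes p, which also gave 1 in FR1 against hnCD16 and 1 in FR1 against CTRL, and limma called 0 member transcripts in FR1 against FR2. With each library left out in turn, member calls stayed at 5 in FR1 and 6 in FR2 against CTRL and at 5 to 6 in both against hnCD16. Other pathway calls ranged from 0 to 1 in hnCD16 against CTRL (1 without hnCD16 replicate 1) and from 5 to 9 in FR1 against FR2 (5 without FR1 replicate 2). Member transcripts ranged from 0 to 1 and from 1 to 2 (2 without FR1 replicate 2 or FR2 replicate 3), and usage calls in FR1 against FR2 from 0 to 1. Transcript shares were also computed from expected counts and the correlations from TPM, and 71 of these 324 values moved.

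Groups share replicate numbers. The correlations of same-numbered deviations from the group means were not all above 0.1 in any comparison. In hnCD16 against CTRL they were 0.338, 0.0196 and 0.404, with a mean of 0.254. The mean for libraries of unlike number was -0.127, which is no separate contrast, because centring on the group means ties it to the first mean. Same-numbered libraries of these 2 groups thus shared part of their deviations for some numbers, but hardly for the one at 0.0196. Whether the numbers mark a shared preparation was not tested. With the number as a replicate block, members called stayed at 6, 6, 5, 6, 0 and 0, TCF3 in FR1 against hnCD16 was -0.0001, and usage calls in FR1 against FR2 were 0. TCF7, LEF1 and BCL11B rest on 31 to 140 counts a library in the FR groups, which limits what can be said of differences between FR1 and FR2.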
